A study of Mus musculus with 2 samples.

Results

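Voltage-gated sodium and calcium channels, hyperpolarization-activated HCN channels and the wider potassium channel superfamily were examined in newborn mouse cerebral cortex with and without floxed MRTF-B deletion. The genes were taken by symbol: those of the Kcn, Scn, Cacna, Cacnb, Cacng and Hcn series, wherever a probe set was given to 1 gene alone. This gave 121 genes on 254 probe sets, out of 18193 named genes on 34945 probe sets. The potassium class held 84 genes, the calcium class 24, the sodium class 11 and the HCN class 2. Among the potassium class were 3 noncoding transcripts named after channel loci, Kcnq1ot1, Kcnmb4os1 and Kcnmb4os2.

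MRTF-A and MRTF-B are actin-regulated coactivators of the transcription factor SRF. The pool labelled control was MRTFA-/-;MRTF-BFlox/Flox and the pool labelled double knockout was MRTF-A-/-;MRTF-BF/F;GFAP-Cre, so by the labels both carried MRTF-A null alleles and floxed MRTF-B alleles, and only the second carried Cre. By the transgene's name Cre was under a GFAP promoter, and the labels do not say in which cells it acted. Each group was 1 pool of cortical RNA from 3 animals, read on 1 Affymetrix array. The age was labelled postnatal day 0 in both, except that the free-text description of the double knockout sample gives day 1. With 1 array per group the differences have no replicate check, no test was made, and fewer cells of a type cannot be told apart from less RNA per cell.

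Channels of these classes set the electrical behaviour of neurons. Sodium channels carry the rising phase of the action potential, potassium channels repolarise the membrane and set its resting level, calcium channels couple depolarisation to transmitter release and gene expression, and HCN channels carry a pacemaker current. Most consist of a pore-forming subunit with accessory subunits that change gating and surface delivery. In rodent cortex many of these genes increase in expression from late gestation through the first postnatal weeks.

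The value of a gene is the signal of its brightest probe set, and a difference is the log2 signal of the double knockout pool minus that of the control pool after median centring. Signals under a floor of 178.6 were set to the floor, and a gene was measured if it reached the floor on at least 1 array. By this rule 91 of the 121 channel genes were measured, 81 of them on both arrays and 10 on 1 array only, while 30 stayed under the floor on both. Signals of different probe sets are not comparable as transcript amounts, so levels are compared between pools and not between genes. Where a gene had 2 or more probe sets at the floor on both arrays, the SD over those probe sets is given. It covers disagreement between probe sets and not variation between animals, and pooled over 4858 such genes of the array it was 0.18 log2. Statements on both, all or every probe set of a gene leave out those under the floor on either array.

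As a check of the labels, Mrtfb read 3359 in the control pool and 2482 in the double knockout pool (mean -0.33 ± 0.15, SD, 2 probe sets), and Mrtfa read 601.6 and 262.4 on 1 probe set. The Mrtfa signal was thus above the floor in both pools and 2.30-fold lower in the second, which goes against the labels' statement that both were null alike. Whether these probe sets lie in the deleted parts was not checked. Control pool and double knockout pool therefore mean the libraries so labelled throughout, and every direction given rests on those labels. All 12 pan-neuronal markers were measured, with summed signals of 83674.8 in the control pool and 84947.3 in the double knockout pool and a median difference of 0.02. Markers of neighbouring and non-neuronal tissue were also present and differed in level. Striatal markers were lower in 9 of 9 measured of 10 listed, oligodendrocyte markers in 8 of 10 measured of 12, and meningeal markers were higher in all 9. Endothelial markers were higher in 3 of 6, interneuron markers in 8 of 9 and progenitor markers in 5 of 10, and 2 of 10 muscle markers were measured, both lower.

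The differences of channel genes were about as large as those of all measured genes. None of the 91 measured genes passed 1.5-fold in either direction, where 1.14% of the 11636 measured genes of the array did, and none passed 2-fold, where 0.0773% did. With array shares this small, a count of none among 91 genes does not set channel genes apart. The differences ran from -0.55 for Scn4b to 0.35 for Kcnk4, and Hcn2 was the lowest gene after quantile normalization or loess centring. The SD over the 81 genes measured on both arrays was 0.20, against 0.19 over all genes measured on both. The directions were uneven. Of the 91 genes 56 were lower and 35 higher in the double knockout pool, 61.5% lower where 47.1% of all measured genes were lower, and the median was -0.04 against 0.01 for all genes. By class, 40 of 61 potassium, 12 of 20 calcium, 3 of 8 sodium (5 of 8 after loess centring) and 1 of 2 HCN genes were lower.

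**Figure D1:**
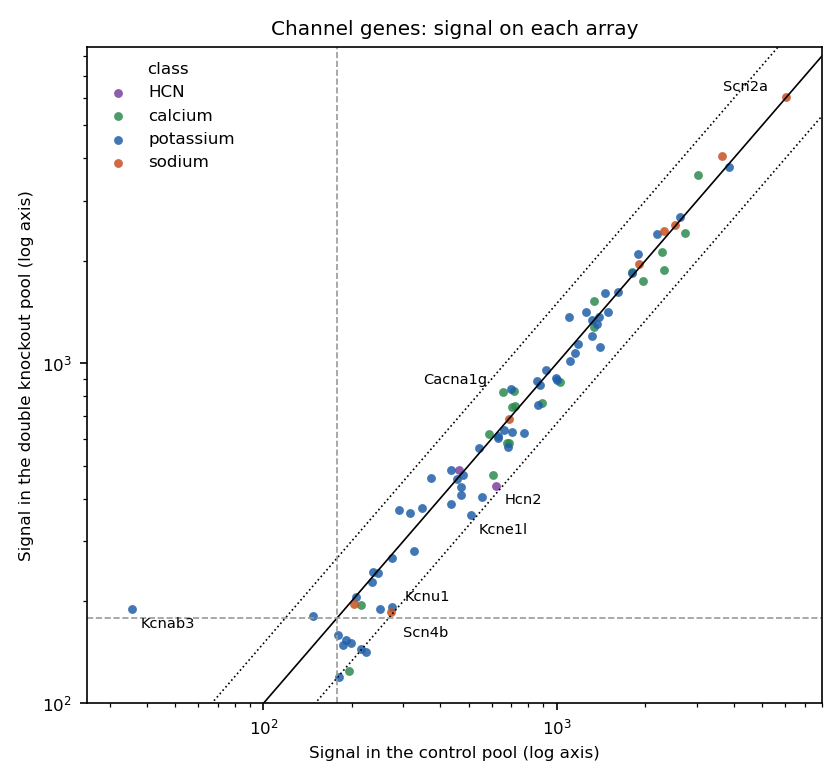
Signal of each measured channel gene on its brightest probe set in the control pool (horizontal, log axis) and the double knockout pool (vertical, log axis), coloured by class. The solid line marks equal signal, the dotted lines 1.5-fold and the dashed lines the floor of 178.6. Points above the floor in both pools lie between the dotted lines; Kcnab3 and other genes under the floor in 1 pool have only a bound.

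The share of lower genes varied with signal, for channel genes and for the array as a whole. Among genes with a mean signal between the floor and 357.3, 10 of 13 channel genes were lower (76.9%), against 57.5% of 2178 named genes. In the next band, up to 714.6, the count was 18 of 24 (75%) against 53.1% of 2912 genes, with medians of -0.10 and -0.01. Between 714.6 and 1429 it was 14 of 25 (56.0%) against 42.4%, and above 1429 it was 6 of 19 (31.6%) against 33.5%. The share was above that of all genes in the 3 dimmer bands and not in the brightest one.

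**Figure D2:**
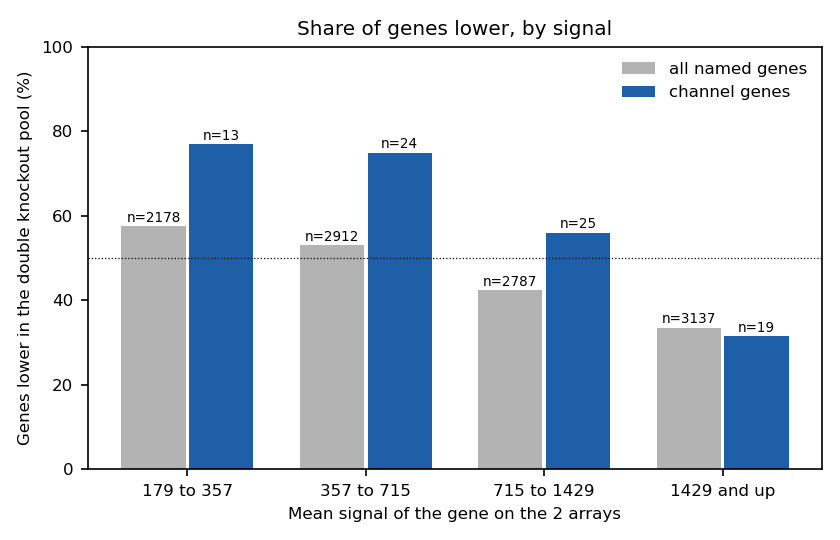
Percentage of genes with a lower signal in the double knockout pool (vertical, from 0) in 4 bands of mean signal, for all named genes measured on both arrays (grey) and channel genes (blue), with the number of genes above each bar. Channel genes exceed all genes in the 3 lower bands, with 76.9%, 75% and 56.0%, and are at 31.6% in the highest band.

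Probe sets of a gene were then compared with each other. Of the 45 channel genes with 2 or more probe sets at the floor on both arrays, 18 had every probe set lower, 40.0% where the share over the array was 20.8%. Every probe set was higher in 5, 11.1% where the share over the array was 22.3%, and 22 had probe sets in both directions, 48.9% where the share over the array was 56.9%. Of the 18 genes, 16 were of the potassium class, out of its 30 genes with 2 or more probe sets, while only Kcnq3 of that class had every probe set higher. After quantile normalization 12 potassium genes had every probe set lower and 2 every probe set higher, and after loess centring 14 and 1. The other 4 with every probe set higher were Cacna1a, Cacna1d, Scn2b and Scn3b. The sizes were small: no channel gene had every probe set past 1.25-fold lower, where 0.391% of the array's genes did, or past 1.25-fold higher, where 0.206% did. Probe sets of 1 gene read the same 2 RNA pools and may overlap in sequence, so they are not replicates.

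**Figure D3:**
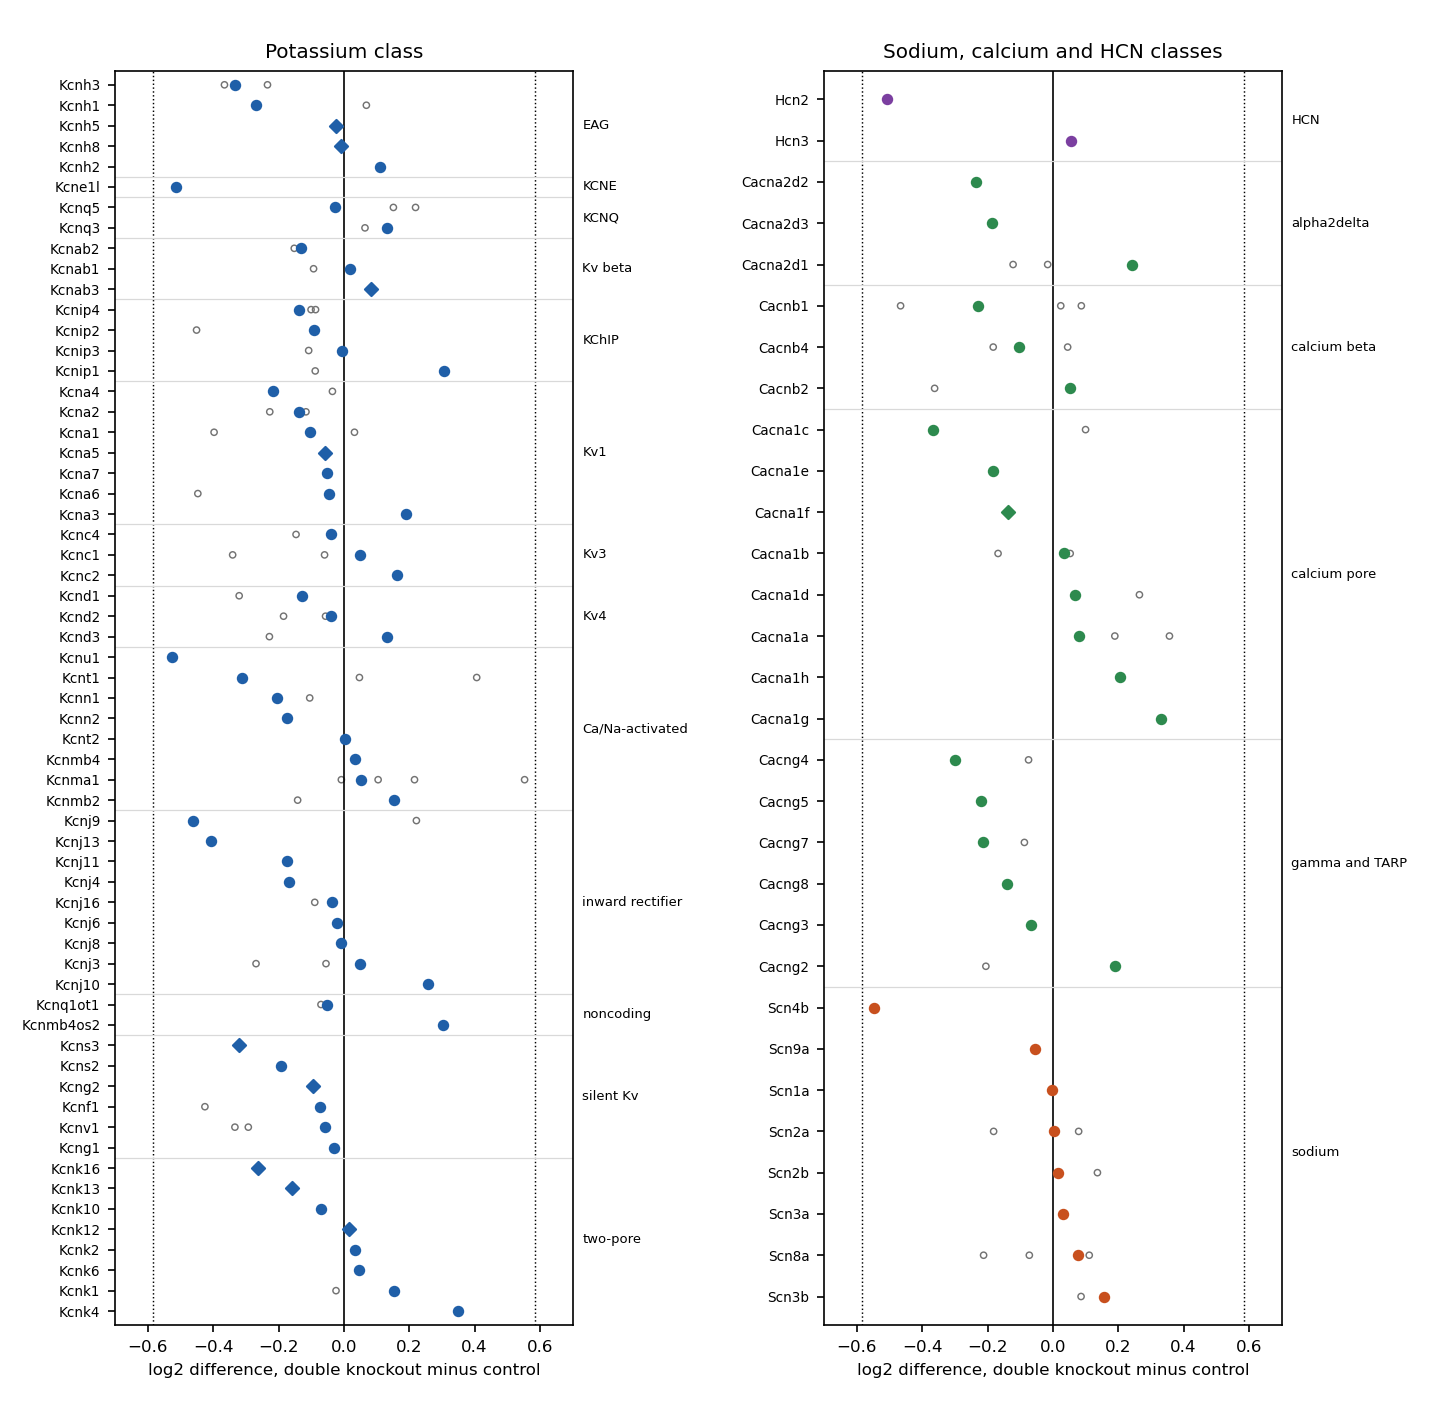
Log2 difference, double knockout minus control, for the 91 measured channel genes, ordered by family. Filled circles are the brightest probe set, filled diamonds are bounds for genes under the floor in 1 pool, open circles are further probe sets at the floor on both arrays, and dotted lines mark 1.5-fold. Filled symbols lie between -0.55 and 0.35, and most of the potassium class lies left of 0.

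Shaker-type Kv1 pore subunits set the threshold and repolarisation of axons. They were lower in 6 of 7 genes, where 47.1% of the array's measured genes were lower. Kcna5 counts by a bound, at least 1.04-fold lower, being under the floor in the double knockout pool. After quantile normalization or loess centring 5 of 7 were lower, and Kcna7 (235.3 and 227.4) turned higher. Kcna2 read 993.5, 727.1 and 367.7 in the control pool and 904.6, 672.6 and 315.0 in the double knockout pool on its 3 probe sets. All 3 were lower, by a mean of -0.16 ± 0.06 (SD, 3 probe sets). Kcna1 was lower on 2 of 3 probe sets (-0.16 ± 0.22) and Kcna6 on both (-0.25 ± 0.28), although the brightest probe set of Kcna6 differed by only -0.05. Kcna4, an A-type subunit, read 325.9 and 281.3 (-0.22) on one probe set and differed by -0.04 on the other, a mean of -0.13 ± 0.13 (SD). Kcna3, which is also expressed by microglia and lymphocytes, was the exception at 0.19 (316.7 to 361.9). Microglial markers were higher in 5 of 8 measured of 9 listed, with summed signals of 6460.1 and 7013.7, none at 0, and their part in the Kcna3 value was not tested.

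Kv4 channels carry the fast transient A-type current of dendrites, and the KChIP proteins, encoded by Kcnip genes, bind them and raise their surface level. Kcnd2, the principal Kv4 subunit of cortical pyramidal neurons, read 3857.6 and 3760.3 on its brightest probe set. All 3 of its probe sets were lower, by -0.09 ± 0.08 (SD). Kcnd1 was lower on both of its probe sets (-0.22 ± 0.14), and those of Kcnd3 went both ways (-0.05 ± 0.26). Among the KChIPs, Kcnip2 (-0.27 ± 0.25, 2 probe sets), Kcnip3 (-0.06 ± 0.07, 2 probe sets) and Kcnip4 (-0.11 ± 0.03, 3 probe sets) were lower on every probe set, although the brightest of Kcnip3 turned to 0.02 after quantile normalization or loess centring. Kcnip1 differed in the other direction on its brightest probe set, which read 1101.2 and 1365.0 (0.31), but by -0.09 on another. Kv4 subunits and KChIPs were thus lower on every probe set in 5 of the 7 genes. Over the array this held for 20.8% of genes with 2 or more probe sets. Kcnip3 did not count among the 5 after quantile normalization or loess centring.

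The fast-spiking Kv3 subunits gave no common direction. Kcnc2 read 1259.8 and 1414.5 (0.16) on its only probe set, and Kcnc4 was lower on both probe sets (-0.09 ± 0.08). Kcnc1 had probe sets between -0.34 and 0.05 (-0.12 ± 0.20, SD, 3 probe sets). The Kv beta subunit Kcnab2, a cytoplasmic partner of Kv1 channels, was lower on both probe sets (-0.14 ± 0.01), and Kcnab1 had probe sets in both directions (-0.04 ± 0.08). Kcnab3, another Kv beta subunit, read 35.8 and 189.6 on its brightest probe set. The control signal was under the floor and the other just above it, so the bound is at least 1.06-fold higher. The second probe set of Kcnab3 stayed under the floor on both arrays at 72.4 and 80.9.

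Electrically silent Kv subunits, which form no channel alone and modify Kv2 channels, were lower in 6 of 6 measured genes. Kcnv1 read 1179.2, 911.0 and 550.0 in the control pool and 1136.2, 724.8 and 450.2 in the double knockout pool. All 3 probe sets were lower, by -0.23 ± 0.15 (SD). Kcnf1 was lower on both probe sets (-0.25 ± 0.25), and Kcns2 (859.9 and 753.7, -0.19) and Kcng1 (878.5 and 862.2, -0.03) had 1 probe set each at the floor on both arrays. Kcns3 and Kcng2 were under the floor in the double knockout pool alone, at least 1.25-fold and at least 1.07-fold lower. The count was 6 of 6 after quantile normalization and loess centring too. It was 7 of 8 with the floor at the 25th percentile, where Kcns1 was higher. With no floor it was 7 of 9, with Kcns1 and Kcnv2 higher. Over all measured genes of the array 47.1% were lower. The brightest probe sets of Kcnf1, Kcng1 and Kcnv1 differed by less than 0.08, so the family's common direction was made of small differences.

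Of the EAG family, which includes the erg and elk channels, Kcnh3 had the largest difference. This forebrain elk-type subunit read 1399.3, 1165.0 and 446.7 in the control pool and 1112.5, 993.2 and 347.6 in the double knockout pool. Its 3 probe sets were lower by -0.33, -0.23 and -0.37, a mean of -0.31 ± 0.07 (SD). The pooled probe set SD was 0.18, and neither SD holds variation between animals or arrays. The first and second of these probe sets were designed from the same accession. Kcnh1 had probe sets in both directions (-0.10 ± 0.24), Kcnh2, the erg1 gene, differed by 0.11 (346.7 to 375.4), and Kcnh5 and Kcnh8 just passed the floor in the control pool only and fell out of the measured genes after quantile normalization or loess centring.

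**Figure D4:**
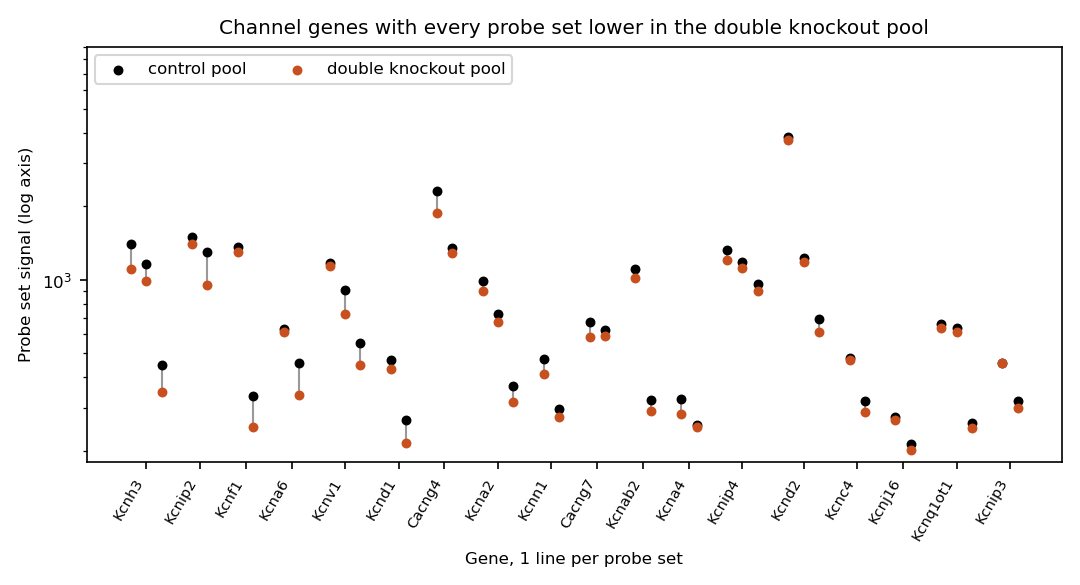
Signal (log axis) of each probe set at the floor on both arrays for the 18 channel genes whose 2 or more probe sets were all lower in the double knockout pool, in order of the mean difference; black is the control pool, orange the double knockout pool. Kcnh3 heads the order at -0.31, and the orange point lies below the black one on every line.

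KCNQ subunits carry the M-current, which restrains repetitive firing. Kcnq3 was higher on both probe sets (0.10 ± 0.05), its brightest reading 2187.5 and 2401.3. Kcnq5 had a brightest probe set at -0.03 and the others at 0.15 and 0.22, a mean of 0.11 ± 0.13 (SD, 3 probe sets). The accessory KCNE genes were at the margin of measurement: 4 of 5 were under the floor, and Kcne1l, an inhibitory partner of KCNQ1, read 508.2 and 356.8 on its only probe set, 1.43-fold lower. The channel genes past 1.25-fold numbered 8 lower and 2 higher, 8.79% and 2.20% of the 91, where 5.54% and 3.45% of the array's genes passed. Of these 10, 7 had 1 probe set at the floor on both arrays and none to set beside it.

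Calcium- and sodium-activated potassium channels were split, with 4 genes higher and 4 lower, and with 2 higher and 6 lower after quantile normalization or loess centring, where Kcnmb4 and Kcnt2 turned to -0.00 and -0.03. Kcnma1, the pore of the BK channel that ends calcium-triggered depolarisation, was higher on 4 of 5 probe sets, with a mean of 0.18 ± 0.22 (SD) and a brightest probe set of 919.1 and 954.8. Its neuronal beta subunit Kcnmb4 read 2619.9 and 2688.1 (0.03), and Kcnmb2 had probe sets in both directions (0.01 ± 0.21). The SK channels Kcnn1, lower on both probe sets (-0.16 ± 0.07), and Kcnn2, at 434.7 and 386.6 (-0.17), contribute to the afterhyperpolarisation. Of the sodium-activated pair, Kcnt2 read 1615.2 and 1622.9 (0.00) and Kcnt1 had probe sets at -0.31, 0.05 and 0.41 (0.05 ± 0.36, SD). Kcnu1, the sperm channel Slo3, read 275.0 and 191.4 on 1 probe set close to the floor (-0.53).

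Inward rectifiers hold the resting potential, and 7 of 9 measured genes were lower, where 47.1% of the array's measured genes were. The count was 4 of 9 after quantile normalization or loess centring, where Kcnj6, Kcnj8 and Kcnj16 turned higher. The G protein-gated subunits gave small or conflicting values: Kcnj3 had a mean of -0.09 ± 0.16 (SD, 3 probe sets), Kcnj6 read 245.4 and 242.4, and Kcnj9 read 555.4 and 404.5 on its brightest probe set (-0.46) but 249.9 and 292.2 on another (0.22). Kcnj4 read 704.5 and 629.2, and Kcnj11, the pore of the ATP-sensitive channel, 1004.0 and 891.9, both -0.17. Kcnj10, the Kir4.1 subunit of astrocytes, read 698.8 and 837.8 (0.26), while its heteromeric partner Kcnj16 was lower on both probe sets (-0.06 ± 0.04). Astrocyte markers were higher in 5 of 8 measured of 8 listed, with a median of 0.07 and summed signals of 29546.3 and 29621.6, none at 0. Gfap had the largest difference among them, at 0.58 ± 0.01 (SD, 2 probe sets). Slc1a2, S100b and Gja1 were lower on their brightest probe sets, at -0.20, -0.08 and -0.06. The part of astrocytes in the Kcnj10 value was not tested.

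Channel genes expressed chiefly outside cortical neurons were read beside the markers of those cells. Kcnj13, a channel of the choroid plexus epithelium, read 249.6 and 188.8 (-0.41), the second close to the floor. Of 7 choroid plexus markers 3 were measured, 2 of them lower, and the summed signals of 13024.0 and 13292.3 came mostly from Ttr. Kcnj8, a pericyte and smooth muscle channel, read 206.2 and 205.5, and pericyte markers were lower in 3 of 5 measured of 6, with summed signals of 6507.4 and 7199.8. Kcnk13, the two-pore channel of microglia, was at least 1.12-fold lower in the double knockout pool. Microglial markers were higher in 5 and lower in 3 of the 8 measured, with a median of 0.16 and summed signals of 6460.1 and 7013.7. No marker signal was 0, and the part of these cells in the values was not tested.

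Two-pore channels carry background potassium leak, and 5 of 8 measured genes (62.5%) were higher, where 52.9% of the array's measured genes were. With 8 genes this does not set the family apart. Kcnk2, the mechanosensitive TREK-1 channel, read 1799.8 and 1847.2 (0.03) and Kcnk1 read 1884.9 and 2099.7, with a mean of 0.06 ± 0.12 (SD, 2 probe sets). Kcnk4, the related TRAAK channel, read 290.4 and 370.8, 1.27-fold higher, on 1 probe set. Kcnk10, the third of the mechanosensitive set, read 630.4 and 601.9 (-0.07). Kcnk16 was at least 1.20-fold lower and Kcnk12 at least 1.01-fold higher, each on 1 probe set close to the floor. The noncoding Kcnq1ot1, which is antisense to Kcnq1 and silences its imprinted neighbours, was lower by -0.06 ± 0.01 (SD, 3 probe sets) while Kcnq1 itself stayed under the floor, and Kcnmb4os2 read 372.9 and 461.2 (0.30).

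The pore-forming sodium channels of brain were nearly equal in the pools on their brightest probe sets. Scn2a, which dominates the immature axon initial segment, read 6011.9, 2832.3 and 3050.4 in the control pool and 6046.9, 2999.1 and 2696.9 in the double knockout pool. Its mean difference was -0.03 ± 0.13 (SD, 3 probe sets), so the probe sets straddled 0. Scn3a, the form most abundant before birth, read 1905.8 and 1950.4 (0.03). Scn8a, the later form of the mature initial segment and nodes, had a mean of -0.02 ± 0.15 (SD, 4 probe sets), and Scn1a, which serves fast-spiking interneurons, read 686.6 and 687.3 (-0.00). A dimmer Scn1a probe set read 212.7 and 160.9, under the floor in the double knockout pool, so at least 1.19-fold lower. The brightest probe sets of Scn1a, Scn2a, Scn3a and Scn9a, and of Scn2b, changed sign under at least 1 other scaling and stayed within 0.06 of 0. Scn9a, mainly a sensory neuron channel, read 203.1 and 196.1, and the peripheral forms Scn10a and Scn11a, with Scn7a, stayed under the floor.

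The accessory sodium channel beta subunits, adhesion-type proteins that adjust gating, went apart. Scn3b was higher on both probe sets, reading 3642.8 and 1106.7 in the control pool and 4068.8 and 1177.9 in the double knockout pool (0.12 ± 0.05, SD). Scn2b was also higher on both of its probe sets (0.08 ± 0.08). Scn4b, the subunit behind resurgent current and strongly expressed in the striatum, read 271.4 and 186.1, 1.46-fold lower on its only probe set. Striatal markers were lower in all 9 measured of 10 listed, with summed signals of 12439.0 in the control pool and 10553.9 in the double knockout pool, a median of -0.31 and none at 0. Their part in the Scn4b value was not tested.

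Pore-forming calcium channels were higher in 5 of 8 measured genes (62.5%), where 52.9% of the array's measured genes were. The count was 4 of 8 with the mean over probe sets and 3 of 6 without suffixed probe sets, so it does not set the family apart. The P/Q-type Cacna1a, which triggers transmitter release at mature synapses, was higher on all 3 probe sets (0.21 ± 0.14, SD), and its N-type counterpart Cacna1b was near 0 (-0.01 ± 0.10, SD, 4 probe sets). The T-type genes, which open near rest, were both higher, Cacna1g at 653.2 and 823.4 (1.26-fold) and Cacna1h at 714.8 and 826.3 (1.15-fold), with 1 probe set each at the floor on both arrays. The L-type pair that couples to gene expression differed: Cacna1d was higher on both probe sets (0.17 ± 0.14), whereas Cacna1c read 603.4 and 469.0 on one (-0.37) and 477.5 and 513.1 on the other (0.10). The R-type Cacna1e read 1969.1 and 1739.4 (-0.18). Cacna1f, a retinal form, was at least 1.10-fold lower, and the muscle form Cacna1s was under the floor.

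Calcium channel accessory subunits had mixed values. Of the alpha2delta proteins, which raise surface delivery, Cacna2d2 read 685.8 and 584.1 (-0.24) and Cacna2d3 read 2731.9 and 2406.0 (-0.19). Cacna2d1 read 3021.8 and 3585.1 on its brightest probe set, but its mean was 0.04 ± 0.19 (SD, 3 probe sets). The cytoplasmic beta subunits had probe sets in both directions in all 3 genes, with means of -0.15 ± 0.25 (SD, 4 probe sets) for Cacnb1, -0.15 ± 0.29 (SD, 2 probe sets) for Cacnb2 and -0.08 ± 0.12 (SD, 3 probe sets) for Cacnb4.

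The Cacng genes of brain encode mainly TARPs, which carry AMPA receptors to the synapse rather than serving calcium channels. They were lower in 5 of 6 measured genes, where 47.1% of the array's measured genes were. Cacng4, found in embryonic neurons and oligodendrocyte precursors, read 2313.1 and 1352.0 in the control pool and 1883.5 and 1287.3 in the double knockout pool. Both probe sets were lower (-0.19 ± 0.16, SD). Cacng7 was lower on both probe sets (-0.15 ± 0.09), and Cacng5, Cacng8 and Cacng3 differed by -0.22, -0.14 and -0.07. Cacng2, stargazin, had probe sets at 0.19 and -0.21. The muscle subunit Cacng1 and Cacng6 stayed under the floor. Oligodendrocyte markers, with summed signals of 23388.3 and 19883.9, were lower in 8 of 10 measured of 12 listed, with a median of -0.29 and none at 0. On their brightest probe sets the myelin genes Mobp, Mag, Ugt8a, Mbp and Cnp were at -0.97, -0.71, -0.54, -0.43 and -0.32. The lineage and precursor markers Sox10, Cspg4, Olig2, Olig1 and Pdgfra were at -0.25, -0.20, -0.05, 0.04 and 0.15. The part of oligodendrocyte lineage cells in the Cacng4 value was not tested.

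Of the HCN genes, Hcn2 read 619.4 and 436.7, 1.42-fold lower, and Hcn3 read 465.2 and 484.8 (0.06), each on 1 probe set. Hcn2 is high in thalamic relay neurons and is also expressed in cortex. Thalamic markers were lower in 2 of 5 measured of 7 listed, with a median of 0.00 and summed signals of 4015.5 and 4059.8, none at 0. Tcf7l2 was at -0.50 ± 0.15 (SD, 2 probe sets). Calb2, Rora, Prkcd and Lhx2 were at 0.17, 0.07, 0.00 and -0.01 on their brightest probe sets. The part of thalamic cells in the Hcn2 value was not tested.

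Proteins that anchor or modify these channels showed no common direction. Of 31 listed partners 25 were measured, 14 higher and 11 lower, with a median of 0.01, the same as for all genes. Rimbp2, which tethers presynaptic calcium channels to the release site, read 1965.9 and 1159.0 on 1 probe set (-0.77) and was the only partner past 1.5-fold. The HCN auxiliary subunit Pex5l had a mean of 0.08 ± 0.25 (SD, 2 probe sets), and Rem2, a GTPase that inhibits calcium channels, was lower on both probe sets (-0.27 ± 0.06). The initial segment anchor Ank3 had a mean of -0.01 ± 0.16 (SD, 6 probe sets). Of 17 sodium and calcium pumps and exchangers 14 were measured, 8 higher and 6 lower, with a median of 0.02 and none past 1.5-fold.

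Several channel genes lie next to each other in the RefSeq order of protein-coding genes (GRCm38.p6). Neighbours need not read alike on their brightest probe sets. Kcnj9 and Kcnj10 on chromosome 1 were at -0.46 and 0.26, but a dimmer Kcnj9 probe set was at 0.22. Scn2b and Scn4b on chromosome 9 were at 0.02 and -0.55, and Scn2b turned lower after quantile normalization or loess centring. Kcna3 and Kcna2 on chromosome 3 also differed in direction, at 0.19 and -0.14. On chromosome 2 the neighbours Scn3a and Scn2a, and Scn1a and Scn9a, all lay within 0.06 of 0. On chromosome 6 Kcna1 and Kcna6 were lower, at -0.10 and -0.05. Their neighbour Kcna5, under the floor in the double knockout pool, was at least 1.04-fold lower. On chromosome 11 Cacng4 and Cacng5 were at -0.30 and -0.22.

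Because the series concerns an SRF coactivator, RefSeq promoter windows of 300 bases, from 250 before to 50 after the start, were searched for the CArG box, the motif SRF binds. It reads the same on both strands. Windows were found for 92 of the 121 channel genes, and 0 of the 92 held an exact CArG box, against 1.59% of the 14368 genes of the array with a window. This says only that these letters were not in these windows. The letters TATAAA, on either strand, were in windows of 7 genes (7.61%), against 11.5% of all. Printed below are the 250 bases upstream of the start, from RefSeq (GRCm38.p6), for Scn2b and Scn4b, Kcnj9 and Kcnj10, and Hcn2. The pairs shown were the wider apart of the 3 neighbour pairs that differed in direction on their brightest probe sets. CG pairs and TATAAA are in capitals, so that the contrast between the printed stretches can be seen. Whether it relates to the differences in signal was not tested.
Scn2b, chr9:45117626-45117875, plus strand: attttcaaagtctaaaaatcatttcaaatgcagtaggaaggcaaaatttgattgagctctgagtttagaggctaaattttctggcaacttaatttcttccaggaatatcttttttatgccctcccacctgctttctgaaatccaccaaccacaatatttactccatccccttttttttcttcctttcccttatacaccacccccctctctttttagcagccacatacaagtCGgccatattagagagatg
Scn4b, chr9:45138374-45138623, plus strand: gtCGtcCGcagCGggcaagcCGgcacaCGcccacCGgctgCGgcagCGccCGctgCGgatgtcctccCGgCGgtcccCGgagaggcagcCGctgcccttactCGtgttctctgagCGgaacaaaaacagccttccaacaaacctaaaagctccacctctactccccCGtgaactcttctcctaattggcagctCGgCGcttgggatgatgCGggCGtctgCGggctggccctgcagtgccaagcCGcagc
Kcnj9, chr1:172329323-172329572, minus strand: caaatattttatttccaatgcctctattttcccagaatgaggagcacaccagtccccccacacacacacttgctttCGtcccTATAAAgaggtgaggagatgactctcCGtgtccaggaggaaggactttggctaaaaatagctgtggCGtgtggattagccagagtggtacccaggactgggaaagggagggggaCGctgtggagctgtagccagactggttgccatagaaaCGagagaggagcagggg
Kcnj10, chr1:172340960-172341209, plus strand: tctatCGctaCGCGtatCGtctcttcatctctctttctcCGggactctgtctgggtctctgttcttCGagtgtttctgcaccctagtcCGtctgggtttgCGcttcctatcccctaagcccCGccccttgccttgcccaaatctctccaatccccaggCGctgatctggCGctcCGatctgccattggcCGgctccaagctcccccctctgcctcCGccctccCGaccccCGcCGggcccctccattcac
Hcn2, chr10:79716384-79716633, plus strand: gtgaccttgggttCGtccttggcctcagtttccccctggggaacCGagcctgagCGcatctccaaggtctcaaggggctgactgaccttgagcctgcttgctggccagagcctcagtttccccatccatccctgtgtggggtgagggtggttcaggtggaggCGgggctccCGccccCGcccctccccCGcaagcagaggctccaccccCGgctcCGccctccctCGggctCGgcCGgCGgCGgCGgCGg
The printed 250 bases within each of these pairs were unlike. Those of Scn2b held 1 CG pair and 38.4% G and C, and those of Scn4b 23 CG pairs and 66.0%. The printed bases of Kcnj9 held 5 CG pairs and a TATAAA, and those of Kcnj10 17 CG pairs and no TATAAA.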

How the data were processed

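Per the submitters' processing notes the authors used MAS5, and what they deposited is 1 linear intensity per probe set and array; the sources used here do not name its version or scaling target. The 2% trimmed mean was 500.0 on both arrays. Of 45101 probe sets, 64 controls were set aside. Probe sets were named from platform annotation, and the Entrez identifiers of all 121 channel genes matched RefSeq (GRCm38.p6). The double knockout signals were centred by 0.0037 log2, the floor was the 50th percentile, and the brightest probe set stood for a gene. Printed signals are as deposited; differences and folds are centred. The floor is not a detection call. The tools were numpy 2.4.6, pandas 2.3.3, matplotlib 3.10.9 and statsmodels 0.14.6 under Python 3.11.15, and the calculation was tested on simulated data. The number of arrays, 1 per group, limits the precision.

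The genes, lists, families and thresholds were chosen with earlier results of these data known. The rule for named genes took, per class, the 6 members with the highest signal, the 5 largest differences in each direction, all measured sodium and HCN genes, family members of opposite sign, and up to 4 genes per list of the 16 other lists with the largest difference. Further channel genes were named to cover each family. Ank3, Ttr and further astrocyte, thalamic and oligodendrocyte markers were named after their values were seen. Alternatives were other centring, other floors, a pseudocount, the mean over probe sets, and leaving out suffixed probe sets. No per-sample column was left without a sample (0 columns).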

Additional observations from a re-analysis of the deposited data

How the results depend on the processing

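With 1 array per group no replicate could be left out. The yardstick for class medians was the SD over a class's genes divided by the square root of their number. Genes are not replicates, so it is a size and not an error of the median. The medians moved by less than it under every alternative except the floor at the 75th percentile. There the potassium median was -0.0685 and the calcium median -0.0600. For the 2 HCN genes the yardstick was 0.28, too wide to serve as a check. Their median of -0.23 became -0.07 at that floor, where 1 gene was measured. The sodium median, 0.01, turned to -0.00 after loess centring and to -0.03 with the mean over probe sets. No channel gene passed 1.5-fold without centring, with quantile normalization, loess centring, the floor at the 75th percentile, the mean over probe sets, or without suffixed probe sets, and 0 passed 2-fold. With the floor at the 25th percentile 2 were higher and 3 lower, with no floor 3 and 8, and with a pseudocount 1, Kcnab3, was higher; these genes were under the main floor on at least 1 array. At 1.25-fold, a threshold added after seeing the data, 2 were higher and 8 lower. Lower genes numbered 52 to 63 of the 86 to 91 measured wherever the floor stayed at the 50th percentile, and 35 of 56 with the floor at the 75th. Genes with every probe set lower numbered 16 after loess centring (35.6%, where all genes gave 21.3%) and 14 after quantile normalization (31.1%, where all genes gave 19.6%); they were 9 of 22 with the floor at the 75th percentile and 29 of 72 with no floor. Those with every probe set higher were 8 with the floor at the 25th percentile and 2 at the 75th. Leaving out the noncoding transcripts, also added after seeing the data, left the potassium median at -0.04. The sign of single genes changed in 12 of 89 after loess centring, in 12 of 89 after quantile normalization and in 11 of 91 with the mean over probe sets, among them Kcnt1, at 0.05 with that mean. Kcnab3 ranged from 0.08 to 2.40 over the settings for dim signals.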
